A study of Mus musculus with 2 samples.

Results

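Uterine stromal fibroblasts that carried transcripts of at least 3 of 7 genes, among them the cytokine gene Il6 and the chemokine gene Cxcl5, were examined in 2 single-cell libraries of mouse uterus. The set comprised 162 of 8603 cells, 63 in the control library and 99 in the cKO library. A cell in which 500 or more genes were detected and mitochondrial transcripts did not exceed 20% entered the stromal gate when Col1a1, Col1a2, Col3a1, Dcn and Lum made up at least 0.5% of its unique molecular identifiers (UMIs, each standing for 1 captured transcript) and when Ptprc and Epcam, markers of leukocytes and epithelium, were at 0. It joined the set when at least 3 of Il6, Cxcl5, Cck, Aldh1a3, Tslp, Pcolce2 and Ptx3 were detected. Neither Il6 nor Cxcl5 was detected in 12 of the 63 control and 2 of the 99 cKO set cells. Cells with at least 3 of Cyp26b1, Prrx2, Dio2, P2ry14, Nrg2, Aldh1a2 and Saa3, or at least 3 of Gpr83, Cilp, Adgrd1, Sfrp4, Rnase10, Asb5 and Tnfrsf11b, were left out. The cells were thus chosen by their measured values, and the levels of the 28 genes just named are descriptions.

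Both libraries came from whole uteri of female mice aged 6 months, with 3 uteri pooled per library. The control mice carried floxed Prickle1 (Prickle1 f/f). The cKO mice carried floxed Prickle1 together with a Cre expressed from the lactoferrin gene Ltf (Prickle1 f/f Ltf-cre, given as Ltf-iCre in the series text). A separate genotype entry calls both samples C57BL/6J wild-type, which differs from the titles used here. Ltf is active in the uterine epithelium, so stromal fibroblasts are not the cells at which the deletion is aimed. Tissue was digested with collagenase for 5 hours at 37 °C, and single-cell libraries were made from transcript 3′ ends. With 1 library per genotype, genotype, pool, digestion and library preparation cannot be told apart, no test between the groups was possible, and every interval given here is a 95% interval for counting error only.

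Il6 encodes interleukin-6, a cytokine that signals through the shared receptor subunit gp130 and induces acute-phase genes. Cxcl5, Cxcl1, Cxcl2 and Cxcl3 encode the class of CXC chemokines that attract neutrophils through the receptor Cxcr2. Many of these genes are classical targets of the transcription factor NF-kB, which is activated by interleukin-1, tumour necrosis factor and microbial products. Among the other genes of the rule, Ptx3 encodes a soluble pentraxin that binds microbes and takes part in hyaluronan matrix, Tslp an epithelial and stromal cytokine that acts on dendritic cells and innate lymphocytes, Aldh1a3 an enzyme that makes retinoic acid, Pcolce2 an enhancer of procollagen C-terminal processing, and Cck the peptide hormone cholecystokinin.

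On GRCm38, Il6 lies on chromosome 5 from 30013114 to 30019981, and Cxcl5 (90759360 to 90761624), Cxcl3 (90786103 to 90789600), Cxcl1 (90891241 to 90893115) and Cxcl2 (90903871 to 90905938) follow one another on the plus strand of the same chromosome. Promoter sequence of RefSeq (GRCm38.p6) was searched for the NF-kB-like motif GGGNNTTTCC on both strands, in the 250 bases before each start. It occurred in 447 of 27025 genes (1.65%), among them Il6, Cxcl1, Cxcl2 and Cxcl3. Of the 7 genes of the rule, 4 were in the promoter table and 1 (Il6) matched. Cxcl5 and Ccl2 were not in the table, so they were not searched. Of 5 neutrophil-attracting CXC chemokine genes outside the rule, all were in it and 3 matched. Of the 14 named genes higher in the set, 6 were in the table and 1 (Cxcl1) matched, and of the 12 named genes higher in cKO, 9 were in it and 1 (Cxcl2) matched. The 120 bases from -150 to -31 are shown for Il6, a gene of the rule, and for the 3 chemokine genes with a match on the same chromosome, with motif matches in capitals. Cxcl3 itself was detected in 1 control and 6 cKO set cells only. A match is a description of the letters, not evidence of binding.
Il6, chr5:30012964-30013083, plus strand: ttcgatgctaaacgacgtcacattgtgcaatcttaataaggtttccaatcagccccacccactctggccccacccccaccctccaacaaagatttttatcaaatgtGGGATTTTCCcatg
Cxcl1, chr5:90891095-90891214, plus strand: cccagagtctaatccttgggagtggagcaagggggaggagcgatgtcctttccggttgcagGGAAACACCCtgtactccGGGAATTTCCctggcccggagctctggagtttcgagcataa
Cxcl2, chr5:90903749-90903868, plus strand: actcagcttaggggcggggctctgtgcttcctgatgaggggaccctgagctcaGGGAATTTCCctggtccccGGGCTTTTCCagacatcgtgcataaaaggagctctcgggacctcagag
Cxcl3, chr5:90785951-90786070, plus strand: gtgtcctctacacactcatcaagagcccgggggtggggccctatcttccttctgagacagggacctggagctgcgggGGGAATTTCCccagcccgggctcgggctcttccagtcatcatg
In Il6 the match lay at -44 to -35. Cxcl1 had a match at -71 to -62 and another on the minus strand at -89 to -80, and Cxcl2 had matches at -97 to -88 and -78 to -69. The match of Cxcl3 lay at -73 to -64. The AP-1-like motif TGANTCA, found in 2113 of the 27025 genes (7.82%), also occurred before Il6, at -249 to -243. It was found in 1 of the 4 rule genes in the table, in 1 of the 6 named genes higher in the set (Gfpt2) and in 3 of the 9 named genes higher in cKO (Tnfaip6, Il11 and Tfpi2).

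Sequencing gave 45035801 UMIs in control and 57145553 in cKO. Of 3653 control and 4950 cKO cells, 775 and 1491 passed the stromal gate. The set's cells were deep: the median was 18962 UMIs and 4167 genes in control and 15533 UMIs and 3689 genes in cKO, against medians of 5158 and 7199 UMIs in the 627 control and 624 cKO stromal-gate cells that had fewer than 3 genes of each of the 3 lists. The latter are called the remaining stromal cells below. Detecting 3 of 7 genes is easier in deeper cells. The median mitochondrial share of the set was 1.97% in control and 2.25% in cKO. Of all cells, 5 carried a barcode present in both libraries, none of them in the set, and no cell of the set had a doublet score above 0.25.

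Set cells made up 8.13% of stromal-gate cells in control (6.30% to 10.3%) and 6.64% in cKO (5.43% to 8.02%), and these intervals overlapped. As a share of all cells they were 1.72% (1.33% to 2.20%) and 2.00% (1.63% to 2.43%). When cells were thinned to 5000 UMIs, shallower cells were left out, and 442 control and 1197 cKO cells in the gate gave shares of 7.92% (35 cells) and 6.52% (78 cells). The exclusion lists weighed unequally on the libraries. At least 3 of the 7 genes were detected in 88 control and 269 cKO stromal-gate cells, of which the lists removed 25 and 170. Without the exclusion the shares were 11.4% in control and 18.04% in cKO. The direction of the difference in abundance was thus not fixed: cKO was also higher as a share of all cells, with Pcolce2 left out of the rule (4.77% and 5.10%) and with the gate at 2% (4.17% and 4.23%).

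The stromal identity of the set was checked against marker genes. At least 3 of 12 stromal fibroblast genes were detected in 61 of 63 control and 96 of 99 cKO cells. Levels are given as UMIs per 1000000 of the summed total of a cell set (CPM). The summed level of these genes was 4157 CPM in control and 4336 CPM in cKO, close to the 4146 and 3920 CPM of the remaining stromal cells. The 13 epithelial markers summed to 35.9 and 16.3 CPM, and Cdh1 and Foxa2 were at 0 in both libraries. The 16 immune markers summed to 19.2 and 29.3 CPM, with Tyrobp and Nkg7 at 0 in both, although 1 cKO cell reached 8102 CPM. Smooth muscle markers summed to 415 and 410 CPM, below the 800 and 812 CPM of the remaining stromal cells, with the regulator Myocd at 0. At least 3 of the 9 smooth muscle markers were detected in 9 of 63 control and 24 of 99 cKO set cells. Pericyte markers summed to 41.0 and 21.5 CPM, endothelial markers to 39.3 and 57.3 CPM. Mesothelial markers summed to 71.0 and 99.6 CPM, and Schwann cell markers to 30.1 and 34.5 CPM. Pdgfra was detected in 92.1% of control and 82.8% of cKO set cells, Vim in 98.4% and 90.9%, and Dpt in 98.4% and 99.0%. Not all stromal genes were present: Hand2, a transcription factor of the uterine stroma, had 0 UMIs in control and 1 in cKO (5.37 and 16.5 CPM in the remaining stromal cells). Hoxa10 had ratios to the remaining cells of 0.651 and 0.420, and Emx2 of 0.709 and 0.575. Of the gate genes, which chose the cells, Dcn had ratios of 1.17 and 1.14, Lum of 0.871 and 0.940, Col1a1 of 0.409 and 0.561, Col1a2 of 0.446 and 0.590, and Col3a1 of 0.570 and 0.535. Col1a1 was detected in 41.3% of control set cells and 74.2% of the remaining control cells. Outside the gate, the fibroblast label thus rests on genes such as Pdgfra, Vim and Dpt. The 7 genes of the rule were detected in varying combinations rather than together. Il6, Cxcl5 and Ptx3 were all detected in 16 of 63 control and 37 of 99 cKO cells.

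Il6 was detected in 43 of 63 control cells and 92 of 99 cKO cells. Per cell it ranged from 0 to 336 UMIs per 10000 with a median of 1.03 in control, and from 0 to 177 with a median of 13.2 in cKO. The ranges overlapped, but 53 cKO cells and only 9 control cells reached 10 per 10000. Summed over the set, Il6 stood at 580 CPM (538 to 625) in control and 2700 CPM (2618 to 2783) in cKO. The cKO-to-control ratio was 4.65 (4.29 to 5.05) in the set and 4.45 (4.03 to 4.93) in the remaining stromal cells. A single control cell held 38.2% of the control UMIs of Il6 in the set. Without the top cell of each library the log2 ratio in the set was 2.79 in place of 2.22. Thinned to 5000 UMIs, Il6 was detected in 43.9% of 57 control cells (30.7% to 57.6%) and 83.7% of 86 cKO cells (74.2% to 90.8%), after 6 and 13 shallower cells were left out. Lymphoid cells, which should lack Il6, showed it in 0.962% of 208 control and 3.61% of 748 cKO cells at median depths of 4802 and 5284 UMIs. The ratio depended on how the set was drawn: in the 35 control and 78 cKO cells that met the rule after thinning, the log2 ratio of Il6 was 0.86, and with the exclusion lists not applied it was 1.54.

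Cxcl5 was concentrated in fewer cells. It was detected in 28 control and 51 cKO cells, with a median of 0 and 0.366 UMIs per 10000 and a maximum of 325 and 481. Its summed level was 1754 CPM (1680 to 1831) in control. In cKO it was 3430 CPM (3338 to 3524), which was higher by a factor of 1.955 (1.86 to 2.06). In the remaining stromal cells Cxcl5 was higher in cKO by a factor of 3.02 (2.76 to 3.32). The 5 cells with the most Cxcl5 held 56.7% of its control UMIs and 37.4% of its cKO UMIs.

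Ptx3 had overlapping per-cell levels in the libraries. Its per-cell median was 3.25 UMIs per 10000 in control and 3.78 in cKO, with maxima of 216 and 181, and its summed level was 1190 CPM (1129 to 1254) and 1069 CPM (1017 to 1122). The cKO-to-control ratio of Ptx3 was 0.898 (0.836 to 0.965) in the set and 1.79 (1.65 to 1.95) in the remaining stromal cells. A single control cell held 25.7% of the control UMIs of Ptx3 in the set. In the 34 control and 55 cKO cells chosen by the other 6 genes Ptx3 was 1534 and 872 CPM. Pcolce2 stood at 143 CPM (122 to 166) and 129 CPM (112 to 148), with overlapping intervals, and no cell exceeded 13.2 per 10000. Aldh1a3 had 72.7 CPM (58.2 to 89.7) and 123 CPM (106 to 142). Cck had 143 CPM (122 to 166) and 84.0 CPM (70.1 to 99.8), and 1 control cell held 45.0% of its control UMIs. Tslp had 15.04 CPM (8.92 to 23.8) and 100.9 CPM (85.7 to 118), but 54.8% of the cKO UMIs lay in 1 cell. In the remaining stromal cells the cKO-to-control ratios of Pcolce2, Aldh1a3, Cck and Tslp were 0.661, 0.968, 4.84 and 0.331.

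**Figure D1:**
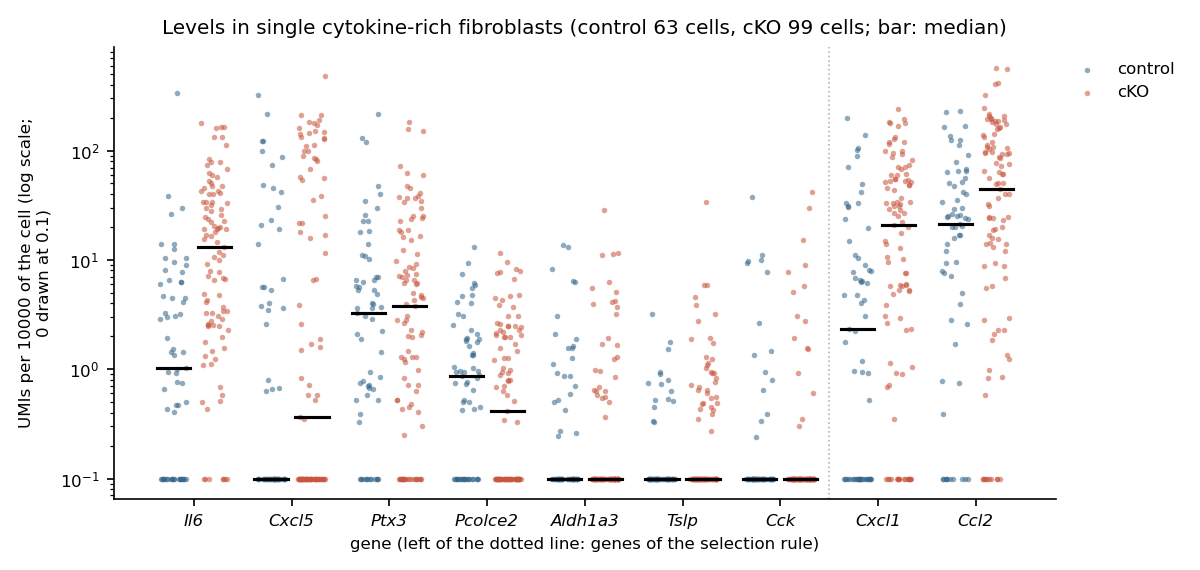
UMIs per 10000 of each cell (log scale, 0 drawn at 0.1) for the 7 genes of the rule and for Cxcl1 and Ccl2, with 63 control cells in blue and 99 cKO cells in red and the median as a bar. Il6 and Cxcl1 have medians of 1.03 and 2.33 in control and of 13.2 and 20.9 in cKO, while Cck, Tslp and Aldh1a3 have medians of 0 in both.

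Because each gene helped to choose the cells, its level was also read in cells that met the rule by the other 6 genes alone. Il6 was then detected in 47.4% of 38 control cells (30.98% to 64.2%) and 85.1% of 47 cKO cells (71.7% to 93.8%). In the cells with fewer than 3 of those 6 genes it was detected in 14.1% (11.5% to 17.02%) and 25.6% (22.3% to 29.1%). Its level was 293 CPM against 165 CPM in control and 3609 CPM against 525 CPM in cKO. Cxcl5 stood at 1613 CPM against 211 CPM in control and 2461 CPM against 757 CPM in cKO, and Ptx3 at 1534 against 241 CPM and 872 against 418 CPM. Tslp in control was the exception: 7.42 CPM (3.20 to 14.6) in 55 cells chosen without it and 9.0 CPM (6.64 to 11.9) in the others. For Il6, the cells chosen without it had a median of 17953 UMIs in control against 5880 in the others, and 16596 against 7502 in cKO, and the part of depth in the detected shares was not tested.

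The set was not the only source of these transcripts. It held 3.18% of the UMIs of all control cells and 2.90% of those of all cKO cells. Of all Il6 UMIs it held 26.1% in control and 23.3% in cKO, of Cxcl5 33.3% and 29.5%, and of Ptx3 36.0% and 14.7%. Ptprc-positive cells held 24.3% and 13.2% of Il6, and stromal-gate cells that met the count in more than 1 of the 3 lists held 13.7% and 31.2%. Aldh1a3 lay mainly in Epcam-positive cells in control (59.5%), which held 3.06% of it in cKO. Cxcl2 was mainly a transcript of Ptprc-positive cells, with 81.0% and 63.4% of its UMIs there and 1.39% and 7.55% in the set.

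**Figure D2:**
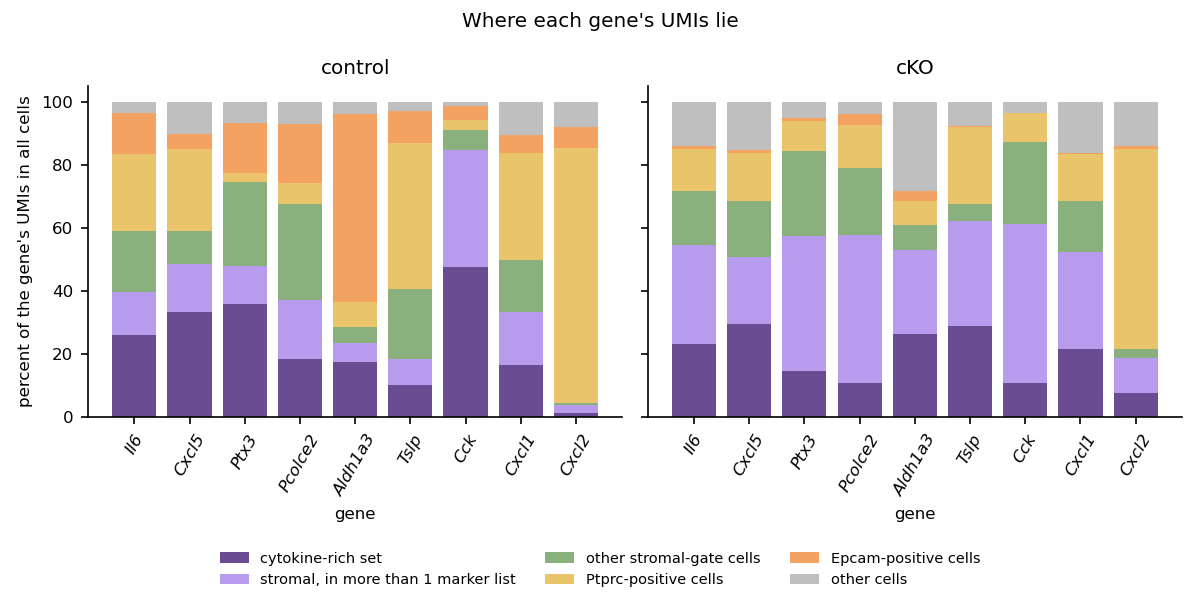
Percent of each gene's UMIs over all cells of a library that lay in the set, in other stromal-gate cells, in Ptprc-positive, Epcam-positive and other cells, for control (left) and cKO (right). The set (darkest) holds 26.1% and 23.3% of Il6 but 1.39% and 7.55% of Cxcl2.

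Cells just inside the limit of 3 genes graded into those just outside. There were 40 control and 58 cKO cells with exactly 3 of the 7 genes and 68 and 101 cells with exactly 2. Il6 was 621 and 1288 CPM at 3 genes and 328 and 1404 CPM at 2. Cxcl1, which the rule did not use, was 927 and 2272 CPM at 3 genes and 683 and 1472 CPM at 2. From 0 genes detected to 4, Cxcl1 went from 48.6 to 1654 CPM in control and from 237 to 5126 CPM in cKO, while Igf1 went from 483 to 15.3 CPM and from 1067 to 25.8 CPM. Median depth moved with the number of genes, from 2886 to 15647 UMIs in control and from 4755 to 18259 in cKO over the same span, and its part was not tested.

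**Figure D3:**
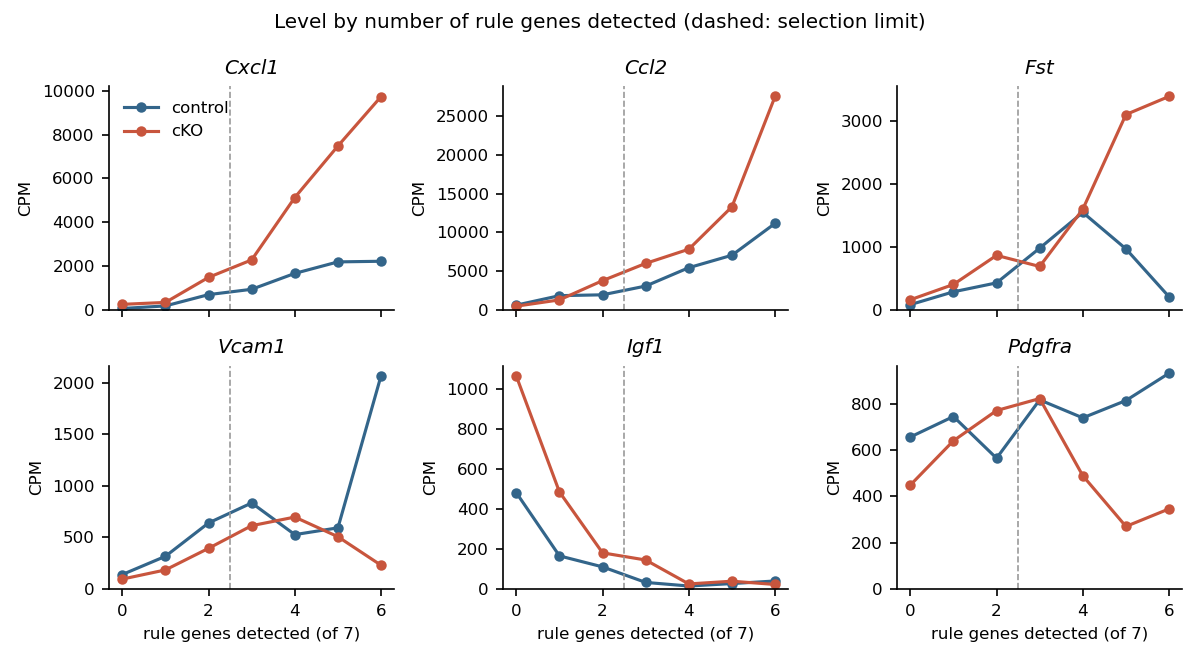
Summed level in CPM of 6 genes outside the rule against the number of the 7 rule genes detected, for control (blue) and cKO (red), in stromal-gate cells with fewer than 3 genes of each exclusion list; the dashed line marks the selection limit. Cxcl1 and Ccl2 climb along the axis in both libraries, and Igf1 falls from 483 and 1067 CPM at 0 genes to 33.4 and 146 CPM at 3, where control has 111 CPM at 2. The points at 5 and 6 genes stand for 3 and 2 control cells and for 10 and 3 cKO cells.

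Beyond the genes that chose it, the set carried more transcripts of the chemokine genes Cxcl1, Cxcl2, Ccl2 and Ccl7 than the remaining stromal cells in both libraries. Among 8063 genes with at least 50 UMIs in each library over the compared cells, 39 (0.484%) were at least 2-fold higher in the set in both libraries and 251 (3.11%) at least 2-fold lower. The median log2 ratio over all 8063 genes was -0.02 in control and -0.06 in cKO. These contrasts come from the cells that were selected, and they describe the set without testing it.

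Among the genes that passed the naming rule, with its limits on cell-free RNA and on single cells, Cxcl1 came first. It was detected in 39 of 63 control and 82 of 99 cKO cells, with per-cell medians of 2.33 and 20.9 UMIs per 10000 and maxima of 199 and 240. Its level in the set was 1254 CPM in control and 4023 CPM in cKO, against 202 and 560 CPM in the remaining stromal cells, ratios of 6.20 (5.73 to 6.72) and 7.18 (6.88 to 7.504). Cxcl2 stood at 347 and 1830 CPM against 32.4 and 162 CPM, ratios of 10.7 (8.93 to 12.9) and 11.3 (10.5 to 12.2). Cell-free RNA, which held 368 and 670 CPM of Cxcl2, was estimated to make up 12.4% of the UMIs of the remaining control cells and 0.608% of those in cKO, against 0.196% and 0.208% in the set. In the remaining control cells the amount to subtract exceeded the Cxcl2 counted there, so none was left. The log2 ratio of the control set to them was then 11.82 in place of 3.42. That value rests on the 0.5 UMI added to each count and is not a measured ratio. In cKO the log2 ratio was 3.53 in place of 3.50. The monocyte-attracting chemokines Ccl2 and Ccl7, neighbours on chromosome 11, were more widely spread over cells. Ccl2 was detected in 84.1% of control and 89.9% of cKO set cells, at per-cell medians of 21.4 and 44.3 per 10000, and its ratios to the remaining stromal cells were 3.53 (3.40 to 3.66) and 5.36 (5.21 to 5.51). Ccl7 had ratios of 3.64 (3.44 to 3.84) and 5.10 (4.88 to 5.33).

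Not all chemokines followed. Of 17 CC chemokines listed, 5 were measured in this comparison, and 2 of them, Ccl2 and Ccl7, were at least 2-fold higher in both libraries. Ccl11, which attracts eosinophils, stood at 50.1 against 13.4 CPM in control and 70.3 against 57.4 CPM in cKO. Cxcl10, an interferon-induced chemokine, was lower in the set, at 39.3 against 163 CPM in control and 22.8 against 56.6 CPM in cKO. Cxcl12, a stromal chemokine that retains leukocytes, had ratios of 1.80 (1.65 to 1.98) and 1.40 (1.23 to 1.59).

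Vcam1, an adhesion receptor for leukocytes and an NF-kB target, stood at 787 CPM in control and 619 CPM in cKO set cells, against 289 and 198 CPM in the remaining cells. Of 18 measured genes of the NF-kB list, Vcam1 and Tnfaip2 were at least 2-fold higher in both libraries and none was lower. The median log2 ratio of that list was 0.34 in control and 0.65 in cKO. Il1r1, the interleukin-1 receptor, had ratios of 2.16 (1.86 to 2.50) and 1.95 (1.70 to 2.22) and so missed the limit in cKO. Il1rl1, the receptor for interleukin-33, had a ratio of 4.89 (4.46 to 5.36) in control and 1.94 (1.73 to 2.16) in cKO. Tnf, by contrast, was at 0 UMIs in the set in both libraries, and Il1b had 1 and 6 UMIs.

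Fst and Bmper were among the other named genes higher in the set. Fst encodes follistatin, which binds activins, and stood at 1100 CPM in control and 1341 CPM in cKO against 207 and 408 CPM, ratios of 5.32 (4.90 to 5.77) and 3.29 (3.10 to 3.50). Bmper, a BMP-binding protein, had ratios of 2.93 (2.18 to 3.92) and 2.85 (2.31 to 3.52). Of 20 measured growth factor genes, 16 did not reach 2-fold in both libraries and 3 were lower: Fgf9, Igf1 and Bmp4, the last with 9 and 6 UMIs in the set.

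Has2, a hyaluronan synthase, had ratios of 3.38 (2.98 to 3.84) and 2.21 (2.03 to 2.40), and Gfpt2, which feeds the hexosamine precursors of hyaluronan, 3.05 (2.70 to 3.44) and 2.81 (2.56 to 3.07). The microfibril gene Mfap5 had ratios of 2.51 (2.10 to 2.99) and 2.46 (2.18 to 2.78). Of 13 measured adventitial-type fibroblast genes, Mfap5 was higher and Dpp4 lower in both libraries. Pi16, a defining gene of that type, was detected in 10 control and 18 cKO set cells, at 45.1 and 23.4 CPM, against 3.07 and 23.2 CPM in the remaining cells, and 1 control cell held 64.8% of its control UMIs. The transcription factor gene Sox9, the opioid peptide precursor gene Penk, Ecel1, Tmem267 and Ifi205 completed the 14 named genes that were higher. Penk had ratios of 2.57 (2.16 to 3.05) and 5.51 (5.00 to 6.08). Of these 14 genes, 12 also stood above the cells that met only the Cyp26b1 list (14 in control and 239 in cKO) and those that met only the Cilp list (43 and 275) in both libraries. The exceptions were Mfap5, at 374 CPM in the control cells of the Cyp26b1 list against 169 CPM in the set, and Penk, at 292 CPM in the control cells of the Cilp list against 177 CPM. Cells that met the count in more than 1 list were not compared here. Of all Cxcl1 UMIs they held 16.7% in control and 31.0% in cKO, against 16.5% and 21.5% in the set. Their summed totals were 725313 and 6944656 UMIs, against 1196519 and 1535736 in the set. Cxcl1 thus stood higher in them than in the set in control and lower in cKO. The same held for Cxcl2, with 2.43% and 11.1% against 1.39% and 7.55%. Ifi205 belongs to a family of near-identical copies among which reads may be split, so its value is uncertain.

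Igf1, the growth factor through which oestrogen acts on the epithelium, ranked first among the lowered genes. It stood at 28.4 CPM in control and 90.5 CPM in cKO, against 313 and 656 CPM in the remaining stromal cells, which was 11.03-fold (7.86 to 16.0) and 7.25-fold (6.12 to 8.65) lower. Wnt5a was at 4.18 and 5.21 CPM against 21.5 and 48.1 CPM. Otud1 had no UMI among the control set cells, which with a floor of 3 counts allows up to 2.51 CPM, against 26.3 CPM in the remaining control cells, so that it was at least 10.5-fold lower by that floor and at least 8.41-fold lower by the exact interval used for the other ratios. In cKO it was 5.11-fold (2.79 to 10.4) lower.

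Some immediate early and heat shock genes, which enzymatic dissociation is known to induce, were lower in the set. Of 23 measured genes of that list, 15 did not reach 2-fold in both libraries, 7 were at least 2-fold lower in both libraries (Fos, Fosb, Jun, Jund, Atf3, Hspa1a and Hspa1b) and Ier3 was higher. The median log2 ratio of the list was -0.68 in control and -0.69 in cKO. Fos stood at 128 and 319 CPM in the set against 636 and 875 CPM, ratios of 0.201 (0.170 to 0.237) and 0.365 (0.332 to 0.400). Hspa1a and Hspa1b are near-identical copies, and their separate values are uncertain. Ier3, also an NF-kB target, stood at 576 and 1448 CPM, ratios of 2.11 (1.93 to 2.31) and 2.69 (2.54 to 2.84).

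**Figure D4:**
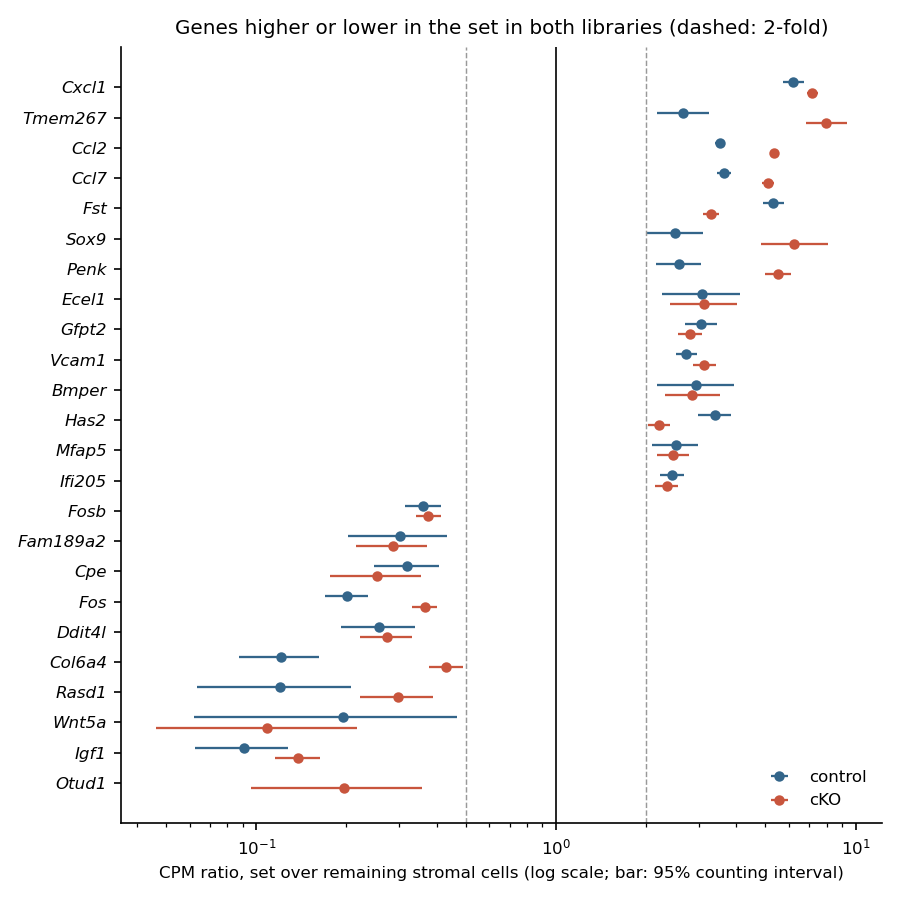
Ratio of CPM in the set to CPM in the remaining stromal cells of the same library for the 24 genes named by the rule and reported, control in blue and cKO in red, with 95% counting intervals, on a log scale; dashed lines mark 2-fold. Cxcl1, Ccl2 and Ccl7 are higher in both libraries and Igf1, Wnt5a and Fos lower; Otud1 has no control point because it had 0 UMIs there.

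With the exclusion lists not applied, 59 of 8934 measured genes were higher in both libraries in place of 39 of 8063. With at least 4 of the 7 genes required, which left 23 control and 41 cKO cells, 409 genes were lower in place of 251. With the gate at 2%, which left 7 control and 11 cKO cells, the cKO ratios of Ccl2, Mfap5, Has2, Sox9, Tnfaip2, Rasd1 and Wnt5a and the control ratio of Bmp4 changed direction.

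Within the set, the cKO library had more transcripts of several chemokine, cytokine and hyaluronan genes than the control library. Of 5948 genes with at least 50 UMIs over both libraries, 214 (3.6%) were at least 2-fold higher in cKO and 185 (3.11%) at least 2-fold lower, with a median log2 ratio of -0.03. The summed totals were 1196519 UMIs in control and 1535736 in cKO. Prickle1 itself had 4 UMIs in control (3.34 CPM, 0.911 to 8.56) and 8 in cKO (5.21 CPM, 2.25 to 10.3), a ratio of 1.56 (0.417 to 7.07), and a difference was not detectable at this depth. The ratio in the remaining stromal cells is given beside that in the set for part of the genes, and the difference between the 2 ratios was not tested. Where it is not given, the ratio in the set does not show that the difference is particular to the set.

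All 3 measured neutrophil-attracting CXC chemokines outside the rule were at least 2-fold higher in cKO. Cxcl1 had a ratio of 3.21 (3.03 to 3.40) in the set and 2.77 in the remaining stromal cells. Cxcl2 was detected in 19 of 63 control and 41 of 99 cKO cells, reached at most 82.8 and 300.1 UMIs per 10000 in a cell, and had a ratio of 5.28 (4.76 to 5.86), against 4.99 (4.23 to 5.92) in the remaining cells. Cxcl3 rested on 4 and 105 UMIs, of which 1 cKO cell held 85.7%. The level of Cxcl1 in the cell-free RNA was 104 CPM in control and 359 CPM in cKO. Subtracting the estimated cell-free RNA moved these cKO-to-control ratios of Cxcl1 and Cxcl2 in the set by less than their counting error. In the remaining control cells the subtraction left no Cxcl2, so the ratio of 4.99 there has no corrected value. With the exclusion lists not applied, the log2 ratio was 0.61 for Cxcl1 in place of 1.68 and 0.92 for Cxcl2 in place of 2.40.

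The CC chemokines differed less. Ccl2 stood at 4262 CPM (4146 to 4381) in control and 8030 CPM (7889 to 8173) in cKO, with a ratio of 1.88 (1.82 to 1.95), and Ccl7 had a ratio of 1.63 (1.55 to 1.72). None of the 3 measured CC chemokines reached 2-fold. Of 4 measured other CXC chemokines, Cxcl14 was higher and Cxcl12 lower. Cxcl14 had 20 and 65 UMIs and a ratio of 2.53 (1.51 to 4.41), and a single cKO cell supplied 46.2% of the latter UMIs. Cxcl12 stood at 550 CPM (509 to 594) in control and 219 CPM (197 to 244) in cKO, 2.51-fold (2.19 to 2.87) lower, with a ratio of 0.515 in the remaining cells.

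Of 3 measured ligands of the interleukin-6 family outside the rule, which signal through gp130, Lif and Il11 were at least 2-fold higher in cKO, and Clcf1 had a ratio of 1.45 (1.05 to 2.00). Lif, leukaemia inhibitory factor, which acts in embryo implantation, was detected in 68.3% of control and 91.9% of cKO cells, at 628 CPM (584 to 675) and 2082 CPM (2011 to 2156), a ratio of 3.31 (3.06 to 3.59), against 2.00 in the remaining cells. Il11 had 160 and 597 CPM, a ratio of 3.74 (3.20 to 4.39), but 1 control cell held 69.1% of its control UMIs, and without the top cells its log2 ratio was 3.34 in place of 1.90. Of the receptors and signalling genes of this family, 1 of 7 measured, Il11ra1, was at least 2-fold higher and none was lower. Il6st, which encodes gp130, stood at 272 CPM (243 to 303) and 280 CPM (254 to 308), and Il6ra at 125 CPM (105 to 146) and 100.3 CPM (85.1 to 117).

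Of 17 measured NF-kB genes, 5 were at least 2-fold higher in cKO (Nfkb1, Rel, Nfkbiz, Tnfaip3 and Cebpd) and none lower, with a list median log2 ratio of 0.47. Nfkb1, a subunit of the factor, stood at 397 CPM (362 to 434) in control and 867 CPM (821 to 915) in cKO. Nfkbiz, a nuclear co-regulator needed for Il6 transcription, had a ratio of 2.51 (2.12 to 2.99), and Tnfaip3, a feedback inhibitor, 2.19 (1.69 to 2.86) against 2.55 in the remaining cells. Of 13 measured receptors for inflammatory signals, Il1rl1 was lower, at 827 CPM (776 to 880) and 333 CPM (305 to 363), and none was higher. Il1r1 had a ratio of 0.993 (0.845 to 1.17).

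Of 5 measured hyaluronan genes, 3 were at least 2-fold higher in cKO: Tnfaip6, Has1 and Vcan. Tnfaip6, which encodes TSG-6, the secreted protein that transfers heavy chains onto hyaluronan, had a per-cell median of 1.76 UMIs per 10000 in control and 9.73 in cKO, and ranges of 0 to 55.6 and 0 to 147 that overlapped. Its ratio was 4.70 (4.26 to 5.19), against 2.71 (2.53 to 2.91) in the remaining cells. Has1, a hyaluronan synthase, was detected in 44 of 63 and 91 of 99 cells, at per-cell medians of 1.05 and 6.34, and had a ratio of 4.22 (3.73 to 4.79), against 2.49 (2.33 to 2.66). Vcan encodes a hyaluronan-binding proteoglycan. Has2, which did not reach 2-fold, had a ratio of 1.60 (1.42 to 1.79).

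Of 12 measured elastic fibre genes, Eln and Fbn1 were at least 2-fold higher in cKO, Mfap4 was lower and 9 were in between. Mfap4 stood at 39.3 CPM in control and 16.9 CPM in cKO. Eln had 57 and 327 UMIs and a ratio of 4.47 (3.37 to 6.03), against 1.58 (1.46 to 1.71) in the remaining cells. Of 12 measured collagens outside the gate, Col6a3 and Col14a1 were at least 2-fold higher and none lower. Col6a3 had a ratio of 2.29 (2.05 to 2.56). Lox, the enzyme that crosslinks collagen and elastin, had a ratio of 2.40 (2.02 to 2.87). Timp1, an inhibitor of metalloproteinases, stood at 191 CPM (167 to 217) and 626 CPM (587 to 667), while the metalloproteinase Mmp3 was lower in cKO, at 1492 CPM in control and 453 CPM in cKO, 3.29-fold (3.01 to 3.60) lower. In the remaining cells Mmp3 was 2.53-fold lower. Of 15 measured protease and inhibitor genes, 3 were higher and 3 lower.

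Growth factor genes were mixed. Inhba, which encodes the activin A subunit that follistatin binds, stood at 518 CPM in control. Its cKO level of 1796 CPM gave a ratio of 3.47 (3.18 to 3.79), against 1.13 (1.09 to 1.18) in the remaining stromal cells. Nrg1, a ligand of ERBB receptors, had a ratio of 3.58 (2.89 to 4.46). Of 18 measured growth factor genes, 5 were at least 2-fold higher (Igf1, Nrg1, Ereg, Inhba and Inhbb) and 2 lower (Vegfd and Angptl4), but 79.1% of the cKO UMIs of Ereg lay in 1 cell, and with at least 4 of the 7 genes required the log2 ratio of Inhbb was -0.44. Igf1, low in the set in both libraries, had a ratio of 3.19 (2.18 to 4.78). Fst stood at 1100 CPM in control and 1341 CPM in cKO.

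Esr1, the oestrogen receptor gene, stood at 38.4 CPM (28.1 to 51.3) and 88.6 CPM (74.3 to 105). Greb1, an oestrogen-responsive gene, was 2.22-fold (1.79 to 2.78) lower in cKO, and with the exclusion lists not applied its log2 ratio was 0.19 in place of -1.15. Of 9 measured steroid receptor and response genes, Esr1 and Igf1 were higher and Greb1 lower. The prostaglandin synthase genes moved apart: Ptgs2 had a ratio of 4.81 (3.82 to 6.13), with 65.9% of its control UMIs in 1 cell, and Ptges was 2.17-fold (1.74 to 2.71) lower in cKO.

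Other genes with the largest excess in cKO were Ch25h, Nptx2, Spry1, Slc7a11, Penk and Tfpi2. Ch25h, which encodes cholesterol 25-hydroxylase, had 12 and 221 UMIs and a ratio of 14.3 (8.05 to 28.2), against 2.97 (2.19 to 4.08) in the remaining cells; in the thinned set its log2 ratio was 1.23 in place of 3.79. Slc7a11, the cystine transporter subunit, had a ratio of 4.43 (3.73 to 5.29), Spry1, a feedback inhibitor of receptor tyrosine kinase signalling, 6.40 (3.96 to 10.9), and Nptx2, a neuronal pentraxin, 5.80 (4.21 to 8.17). The ratios of these 3 genes in the remaining cells were 1.60, 1.42 and 2.39. Penk stood at 177 and 684 CPM, a ratio of 3.86 (3.33 to 4.49), against 1.80 in the remaining cells.

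The genes most lowered in cKO were also lower there in the remaining stromal cells. C1qtnf3 stood at 227 CPM in control and 29.3 CPM in cKO, 7.76-fold (5.64 to 10.9) lower in the set and 5.62-fold lower in the remaining cells. Gpnmb was 9.17-fold (5.22 to 17.4) lower in the set and 9.03-fold lower in the remaining cells, and Pamr1 6.89-fold (4.19 to 11.9) and 6.41-fold lower. Myoc, which encodes myocilin, was 8.63-fold (5.23 to 15.05) and 39.6-fold lower, from 18 UMIs in the cKO set cells and 1.49 CPM in the remaining cKO cells. Lower in both comparisons, too, were the methyltransferase gene Inmt (6.15-fold and 4.59-fold), Mxra8 (4.70-fold and 4.23-fold) and the heparin-binding growth factor gene Mdk (3.86-fold and 3.16-fold). At least 2 of Inmt, Myoc and Scara5 were detected in 24 of 63 control set cells and 3 of 99 cKO set cells, and in 52 of 627 and 12 of 624 remaining cells.

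S100a6 and S100a10, which encode calcium-binding proteins, were 2.99-fold (2.76 to 3.25) and 2.65-fold (2.36 to 2.98) lower in cKO. In the remaining cells they were 2.18-fold and 1.69-fold lower. Gt(ROSA)26Sor, the non-coding transcript of the locus widely used for transgene insertion, had 78 UMIs in control and 20 in cKO, 5.01-fold (3.03 to 8.64) lower, and was 3.07-fold lower in the remaining cells. Mndal, of the same interferon-inducible family as Ifi205 and equally uncertain, was 3.16-fold (2.71 to 3.68) lower, and 2.57-fold lower in the remaining cells. Of 8 measured interferon-response genes, Isg15, Irf9 and Iigp1 were at least 2-fold lower in cKO and Gbp2 higher, with a list median log2 ratio of -0.76. Iigp1 rested on 54 and 8 UMIs. With at least 4 of the 7 genes required the log2 ratio of Irf9 was 0.041, and with a gate of 2% that of Isg15 was 2.34 and that of Gbp2 -0.47.

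**Figure D5:**
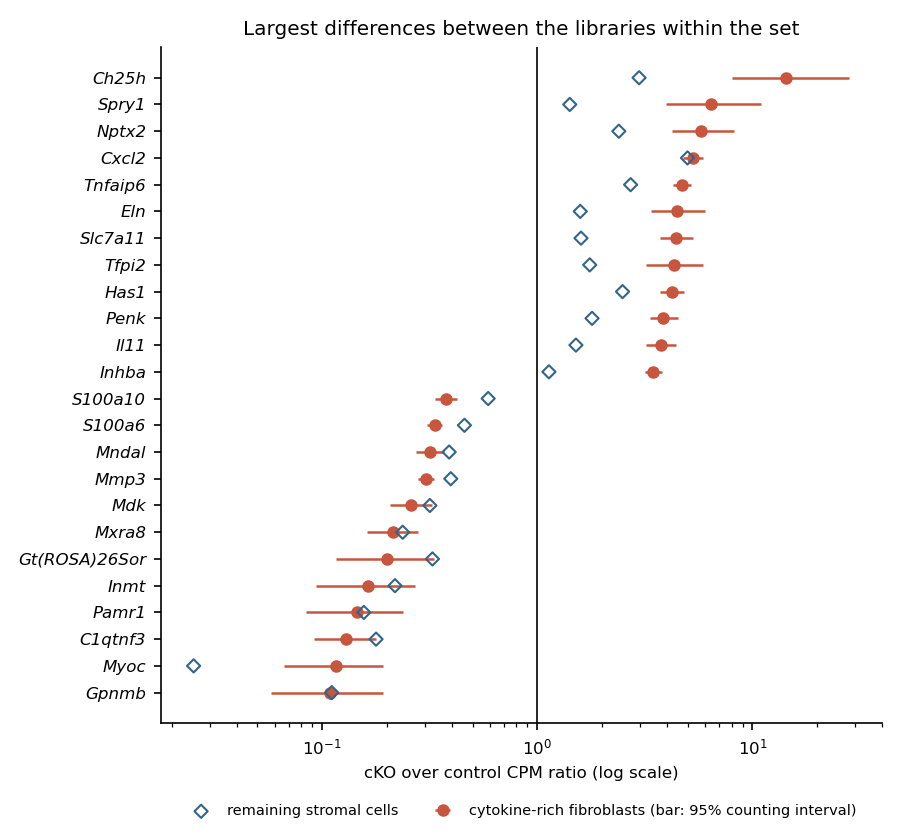
Ratio of cKO to control CPM (log scale) within the set for the 24 genes named by the rule, filled circles with 95% counting intervals, and in the remaining stromal cells, open diamonds. The lower genes such as Gpnmb, Pamr1 and Mxra8 lie at 0.109, 0.145 and 0.213 in the set and at 0.111, 0.156 and 0.237 in the remaining cells, while Inhba (3.47 against 1.13) and Spry1 (6.40 against 1.42) are farther from 1 in the set.

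Of 23 measured immediate early and dissociation genes, Fos, Jun, Ier3 and Btg2 were at least 2-fold higher in the cKO set cells and none was lower, with a list median log2 ratio of 0.43. Fos stood at 128 CPM (108 to 150) and 319 CPM (291 to 349), and with at least 4 of the 7 genes required its log2 ratio was -0.36 in place of 1.32. Markers of smooth muscle were unequal in the same comparison: Acta2 had a ratio of 3.34 (2.26 to 5.07) and Des was 2.14-fold (1.79 to 2.56) lower, while their list summed to 415 and 410 CPM. Kdr, the only endothelial marker measured, was higher in cKO, with a log2 ratio of 1.60. The part of dissociation response, cell depth and pooled animals in the differences between the libraries was not tested.

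The counts of genes past 2-fold within the set varied with how it was drawn, as did the number of genes measured. In the thinned set 104 genes were higher and 44 lower in cKO among 2106 measured, against 214 and 185 among 5948. With the exclusion lists not applied 362 were higher and 225 lower among 8453 measured. With the gate at 2% the cKO-to-control ratios of Tnfaip6, Nptx2, Slc7a11, Penk, Il11, Tfpi2, Timp1, Ier3 and Des changed direction as well, and that of Des also without the exclusion lists.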

How the data were processed

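Single-cell transcript counts were analysed from 2 libraries, control and cKO, each from 3 pooled uteri. The deposited values are raw counts of UMIs per gene and barcode. The file headers name Cell Ranger 4, the submitters' processing notes name Cell Ranger 6.1.1 and mm10, and which of them made the matrices was not settled. The matrices were unfiltered (1214689 and 1359477 barcodes). Groups were taken from the sample titles. Member cells and gene lists were chosen with earlier results of these data known.

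Cells, stromal gate and rule were applied as given in the report, on cells at their own depth. Each library was searched for doublets by comparison with simulated ones (2 per cell, 2000 variable genes, 30 principal components); none was removed, since no member exceeded a score of 0.25. Counts were summed over cells per library and expressed as CPM of that sum. CPM intervals are exact Poisson, ratios exact conditional binomial, and shares exact Clopper-Pearson (95%), all for counting error only. PCR duplicates are collapsed by UMIs, but cells and animals are not replicated. Fitted log2 ratios carry a pseudocount of 0.5 UMI. No p-value was computed. A count of 0 allows up to 3 counts.

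Genes were counted at a ratio of at least 2 or at most 0.5 with at least 50 UMIs, leaving out the 28 rule genes. Named genes were the 12 most raised and 12 most lowered between libraries, and the 15 highest and 10 lowest against the remaining stromal cells, ranked by the interval limit nearer to 1. They needed a CPM in the higher library not under that of barcodes with at most 100 UMIs (cell-free RNA), at least 10% of cells with a UMI and no cell with over 25% of the UMIs there. List genes were also named. A few results are not reported here. In simulated counts for the cKO comparison (5604 genes), all 200 genes changed 4-fold were recovered (100%), and intervals covered 96.2% of true ratios. These counts were Poisson draws without variation between cells or animals. The simulation thus cannot show how the intervals perform where single cells hold much of a gene's UMIs. Coordinates come from GENCODE M21 (GRCm38). Python 3.11.15, NumPy 2.4.6, SciPy 1.17.1 and scikit-learn 1.9.0 were used. Alternatives are given in the closing section; the omission of the exclusion lists and the removal of each gene's top cell were added after seeing the data.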

Additional observations from a re-analysis of the deposited data

Results flagged for a closer look

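For 7 of 8063 genes the set stood at least 2-fold above the remaining stromal cells in one library and at least 2-fold below them in the other; these differences between the libraries were not tested. The log2 ratio was -1.67 in control and 1.19 in cKO for Cxcl3, of which 1 cell held 85.7% of the cKO UMIs. It was -1.39 and 1.28 for Lrrc8d, 1.48 and -1.34 for Golga1, 1.08 and -1.23 for Nipsnap3b, 1.07 and -1.59 for Rab4b, 3.00 and -1.02 for Rgs4, and 1.35 and -1.41 for Rrad. Most of them rested on few UMIs in the set: 28 and 7 for Golga1, 4 and 29 for Lrrc8d, and 61 and 10 for Rgs4, with 80.0% of the cKO UMIs of Rgs4 in 1 cell and 68.1% of the control UMIs of Rrad in 1 cell.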

How the results depend on the processing

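No paired analysis was possible because each group was 1 library. With at least 1000 genes per cell the control share of set cells was 10.3%. With 4 genes required the shares were 2.97% in control and 2.75% in cKO, and 409 genes were lower than in the remaining cells in both libraries. Without the exclusion lists the shares were 11.4% and 18.04% (log2 ratio 0.67), 362 of 8453 genes were higher in cKO and 59 genes higher than in the remaining cells. With Il6 left out of the rule the shares were 4.90% and 3.15%, without Pcolce2 4.77% and 5.10%, without Ptx3 4.39% and 3.69%, and without Cxcl5 4.63% in cKO. A gate of 2% left 7 and 11 cells (4.17% and 4.23%), with 115 genes higher and 84 lower in cKO and 35 lower than in the remaining cells. After thinning, 104 genes were higher and 44 lower in cKO. Averaging cells gave 87 genes higher than in the remaining cells. A minimum of 10 UMIs gave 600 higher and 821 lower in cKO and 70 higher and 833 lower than in the remaining cells; a minimum of 200 UMIs gave 80, 46 and, lower than in the remaining cells, 58. These minimums change the number of genes counted.

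Under the gate of 2%, log2 cKO over control turned for Tnfaip6 (-0.66), Nptx2 (-1.29), Slc7a11 (-0.088), Penk (-0.68), Il11 (-3.19), Tfpi2 (-0.90), Timp1 (-2.99), Isg15 (2.34), Gbp2 (-0.47), Ier3 (-0.31), Des (1.95) and Scara5 (2.07). The log2 ratio to the remaining cells turned in cKO for Ccl2 (-0.027), Mfap5 (-0.064), Has2 (-0.63), Sox9 (-0.17), Rasd1 (0.071), Wnt5a (0.000331) and Tnfaip2 (-0.41), and in control for Bmp4 (0.27). With 4 genes required, log2 cKO over control turned for Inhbb (-0.44), Irf9 (0.041) and Fos (-0.36), and after thinning for Scara5 (0.72). Without the exclusion lists it turned for Greb1 (0.19) and Des (0.33), and the ratio of the cKO set to the remaining cells for Ptges (-0.28; -0.023 after thinning) and Mmp10 (1.03). The cause was not tested. Of 803 alternative values for 73 genes between the libraries, 566 moved by less than counting error, and of 836 for 76 contrasts with the remaining cells, 561 did. The 566 include 73 values from leaving out doublets, which removed no set cell and so could not move them. Limiting mitochondrial transcripts to 10%, TMM factors and subtracting cell-free RNA turned none of the named directions. Leaving out doublets turned none of the contrasts with the remaining cells. Depth limits genes under 50 UMIs, Prickle1 among them.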
